A study of Mus musculus with 2 samples.

Results

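The cells described here are muscle stem cells (MuSCs) of the mouse that scored higher for S-phase than for 5 other gene sets. S-phase is the part of the cell cycle in which DNA is copied. The cells were chosen by 4 genes in the short-read table of the 90% library, namely Mcm5, Mcm6, Pcna and Tyms. Every cell with at least 20000 UMIs (unique molecular identifiers, each standing for 1 captured RNA) was scored, and these are called deep cells below. For each gene, log2 of CPM (counts scaled to 1000000 UMIs per cell) plus 1 was turned into a z-score over the deep cells, and the z-scores of 4 genes were averaged for each of 6 sets. The other 5 sets stand for mitosis (Ccnb1, Cdc20, Cdk1, Birc5), differentiation (Myog, Mymk, Cdkn1c, Ak1), interferon response (Ifit1, Isg15, Iigp1, Ifi27l2a), a stress program led by Nupr1 and Neat1 (with Hmox1 and Ndrg1), and heat shock with immediate early genes (Hspa1a, Fosb, Smad7, Atf3). A deep cell was called an S cell if its S-phase mean was the highest of the 6, and 3 deep cells with UMIs of the immune gene Ptprc were left out. This gave 72 S cells among 603 deep cells, in a table of 3001 barcodes. The share of S cells was 11.9% (exact 95% interval 9.46 to 14.8%, counting error only).

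The study captured YFP-sorted MuSCs of Pax7creERT2 R26-eYFPfl/fl mice on a C57BL6 background, in which tamoxifen turns on YFP in cells that express Pax7. The mice were 3 months old when they received tamoxifen on 5 days. Quiescent cells came from uninjured hindlimb muscle, and activated cells were taken 72 h after injection of 40 μL of 1.2% barium chloride, which injures the muscle. Both kinds of cells carry the same alleles and went into a single capture that was divided into a 90% and a 10% library, so the labels do not say which barcode came from injured muscle, and there are no replicates. No test between groups was therefore made, and all intervals cover counting error only. The number of mice is not given in the sources used here.

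Origins of replication are licensed in G1, when the origin recognition complex, Cdc6 and Cdt1 load the Mcm2-7 helicase onto DNA. Cyclin E with Cdk2 and E2F factors drive the entry into S-phase, and the helicase, the clamp Pcna with its loader Rfc, and the polymerases then copy the DNA. Ribonucleotide reductase and thymidylate synthase (Tyms) supply the nucleotides, and clustered histone genes are transcribed to package the new DNA. MuSCs are mostly outside the cell cycle in resting muscle, and divide after injury.

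The promoters of Mcm5 and Mcm6 are shown because both hold matches to the DNA element bound by E2F, the factor family that turns on genes of S-phase. The 200 bases before the RefSeq start of each gene are printed 5′ to 3′ on the strand of the gene, with E2F matches in capitals. The printed bases of Mcm5 lie at chr8:75109309-75109508 on the plus strand and those of Mcm6 at chr1:128359706-128359905 on the minus strand, in build GRCm38.p6.
Mcm5: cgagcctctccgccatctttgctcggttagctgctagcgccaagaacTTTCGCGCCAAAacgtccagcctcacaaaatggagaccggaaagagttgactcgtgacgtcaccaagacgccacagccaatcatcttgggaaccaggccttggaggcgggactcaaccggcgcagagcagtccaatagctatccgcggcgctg
Mcm6: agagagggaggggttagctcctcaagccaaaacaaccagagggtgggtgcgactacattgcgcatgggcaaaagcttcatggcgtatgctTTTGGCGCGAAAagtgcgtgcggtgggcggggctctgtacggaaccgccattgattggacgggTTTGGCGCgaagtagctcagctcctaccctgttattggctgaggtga
The letters searched on both strands were TTTGGCGC, TTTCCCGC, TTTGCCGC and TTTCGCGC, and matches may overlap each other. In the 250 bases before the start, at least 1 match was present in 1.86% of all 32851 RefSeq promoters. The promoters of Pcna and Tyms held no match to these letters, and neither did those of Ccne1, Rrm2, Ung and Chaf1b. Of 42 promoters of 34 replication genes outside the rule, 5 held a match. Among the 4 promoters of the mitosis set, that of Cdk1 held a match, and 0 of 27 promoters of other mitosis genes did. CCAAT was found in 21 of the 42 replication promoters, in 23 of 27 promoters of mitosis genes and in 33.9% of all promoters. TTTGAA, the CHR element of many mitosis genes, was found in 11.9%, 29.6% and 16.0% of them. A match describes the letters only.

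The 2 tables share barcodes. Of the 79 barcodes with at least 20000 UMIs in the table of the 10% library, all 79 were also in the 90% table, and 76 were deep there too. For each of these 76, the expression profile in the 90% table correlated best with that of the same barcode in the 10% table (median r = 0.937, against 0.683 with other barcodes, over 20506 genes). According to the paper, droplets were divided after reverse transcription, when each still held the cDNA of its cell, and this amounts to sampling cells. By that account the cDNA of a cell goes into 1 library. The tables do not tell whether RNA of the same cells still went into both, or whether reads were pooled or barcode lists shared. Which of these holds was not tested, but the 10% table cannot be taken as a sample of other cells. Of the 72 S cells, 26 had a barcode that was also in the 10% table, 15 of them with under 1000 UMIs there. When all deep cells with a shared barcode were left out and the rest scored anew, 50 S cells were found, or 12.6% of the deep cells.

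Among the deep cells, the S cells were of ordinary depth. They held 21465 to 100175 UMIs (median 47568), against a median of 47002 in the other 531 deep cells. After thinning every cell to 20000 UMIs, the median number of genes detected was 3814 in S cells and 3745 in the others. Scrublet, a doublet caller, marked no deep cell, but it marked only 3 of 2420 cells in all, so it says little about doublets.

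Mcm5 and Mcm6 encode parts of the replicative helicase. Mcm5 was at 69.7 CPM (95% interval 61.3 to 78.9) in the pooled S cells and at 29.9 CPM (27.8 to 32.1) in the pooled other deep cells. Over single S cells it ranged from 0 to 205 CPM with a median of 54.9, and over the others from 0 to 258 CPM with a median of 18.5. The ranges overlapped, although 98.6% of S cells and 55.0% of the others had a UMI.
Mcm6 was at 84.6 CPM (75.3 to 94.7) in S cells and 38.8 CPM in the others. Pcna, the sliding clamp, was at 199 CPM (185 to 214) in S cells and 102 CPM in the others, and every S cell had a UMI of it. Tyms, which makes thymidylate, was at 104 CPM (93.6 to 115) and 58.1 CPM. These 4 genes chose the cells, so their higher levels are a description and not a result. Among the classes, the mitosis cells were nearest, with Tyms at 94.9 CPM and Mcm5 at 43.5 CPM, and the differentiation cells were lowest for Mcm5 at 16.7 CPM.

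**Figure D1:**
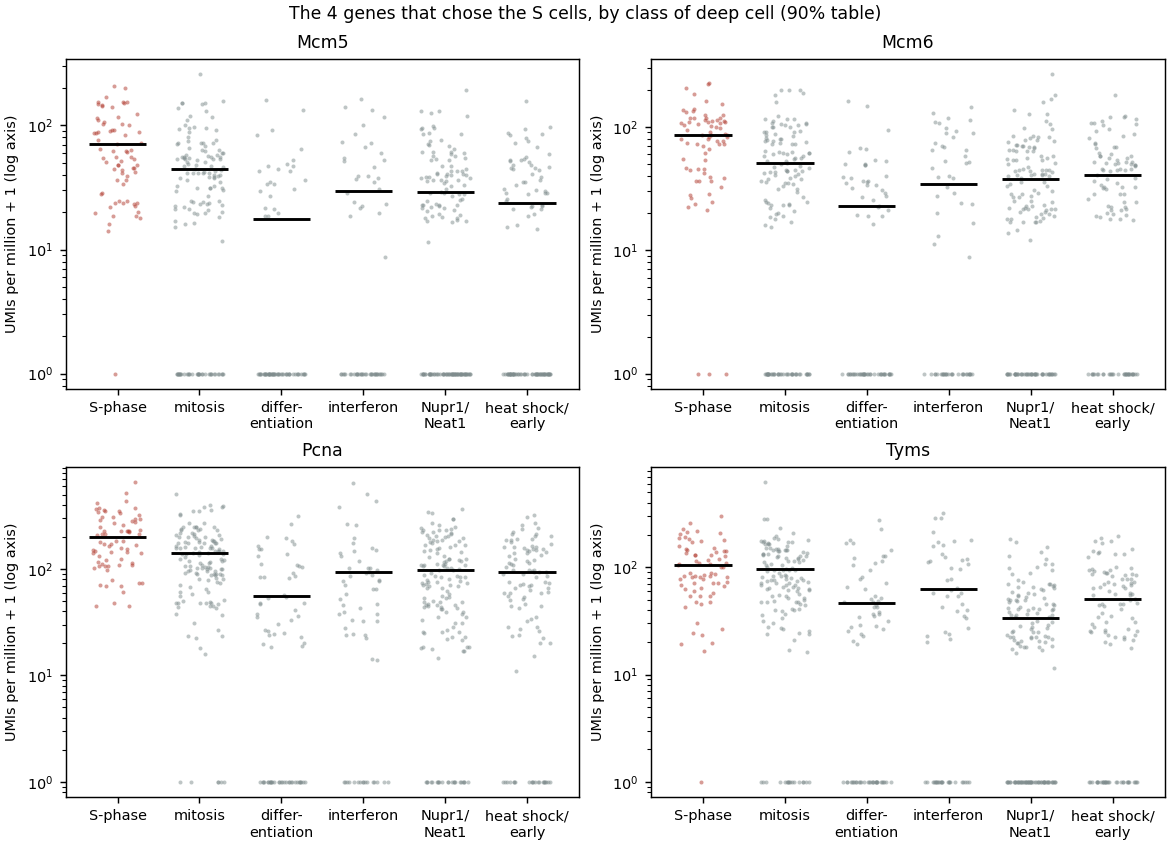
CPM plus 1 (log axis) of Mcm5, Mcm6, Pcna and Tyms in each deep cell of the 90% table, by the set with the highest mean. Points are cells, black bars are pooled CPM plus 1, and S cells are red. The cells of all 6 classes overlap for each gene, and the S cells have the highest bar, 69.7 CPM for Mcm5 against 43.5 CPM in the mitosis cells.

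As a background, 613 cells with at least 1000 but under 20000 UMIs and UMIs of at least 2 of the quiescence genes Calcr, Spry1, Chrdl2, Heyl and Notch3 were examined. Their median depth was 5002 UMIs. Mcm5 was at 2.01 CPM there and had a UMI in 1.14% of cells, and Pcna was at 34.2 CPM with a UMI in 14.5%. Shares at these 2 depths are not comparable. The CPM of both genes was higher in S cells, but both genes helped to choose those cells. The CPM of both was also higher in the other deep cells, as given above.

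The S cells graded into their neighbours. In 39 of the 72, the mitosis set had the second highest mean, and in 53 the mitosis mean was above 0. The S-phase mean was less than 0.1 above the next in 15 S cells, and less than 0.1 below the highest in 21 other cells. Pcna was at 180 CPM in the 15 cells just inside and at 189 CPM in the 21 just outside. The S-phase mean was above 0 in 276 other deep cells, and in 31 it exceeded the median of the S cells, 16 of which were mitosis cells. The class is therefore a range cut from a score, and cells with the same genes at similar levels lie outside it. In 2 S cells the S-phase mean was below 0. Requiring a lead of 0.25 over the next set left 34 S cells.

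**Figure D2:**
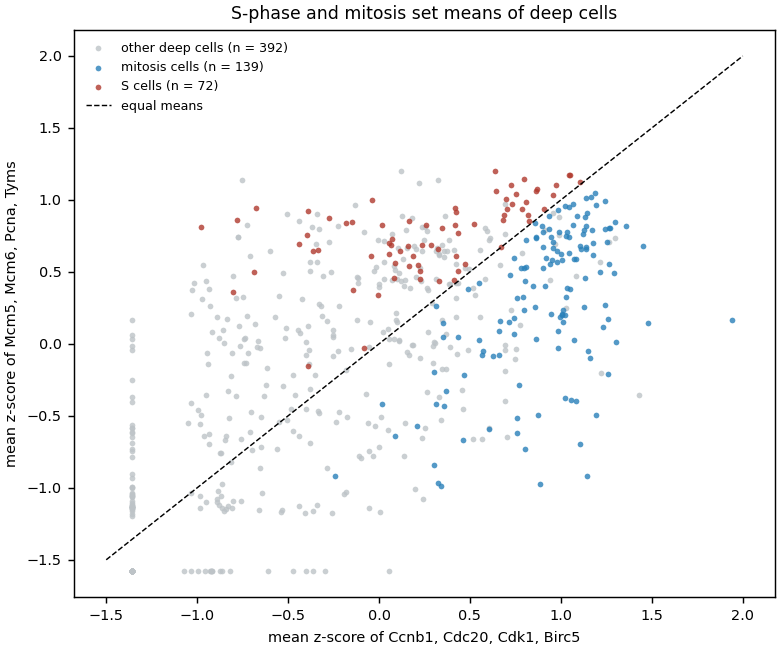
Mean z-score of the mitosis set (horizontal) and of the S-phase set (vertical) for each of the 603 deep cells, with S cells in red, mitosis cells in blue and all other deep cells in grey. The dashed line marks equal means, and the 72 S cells lie above it, among grey cells for which another set was higher still.

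Leaving out each gene in turn gave a value that did not choose the cells. When Mcm5 was left out, 78 cells were chosen, 64 of them among the 72, and Mcm5 was at 55.5 CPM (48.3 to 63.5) in them and 31.6 CPM (29.4 to 33.8) in the rest. Left-out Mcm6 was at 68.8 CPM in 88 cells and 40.1 CPM in the rest. Left-out Pcna was at 183 CPM (170 to 197) in 79 cells and 103 CPM in the rest, and left-out Tyms at 91.7 CPM in 82 cells and 59.1 CPM in the rest. The differences were smaller than with the full rule. For Mcm5 the log2 ratio (of CPM + 10, as all log2 ratios below) was 0.66 instead of 1.00.

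Across the transcriptome, few genes differed between S cells and all other deep cells. At 1.5-fold, of 7720 genes with at least 200 UMIs in the deep cells, 82 (1.06%) were higher in S cells and 154 (1.99%) lower. The median log2 ratio was 0.0045. All of these genes were measured in the cells that the rule sorted, so the counts are given without a test. When, for each gene, the S cell with the most UMIs of it was left out, 52 were higher and 232 lower.

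The machinery of replication was higher as a group. Apart from the 4 genes of the rule, 19 of 43 tested replication genes were at least 1.5-fold higher and none was lower by that fold, against 1.06% of all genes, and all 43 had a log2 ratio above 0 (median 0.55). With 50 CPM added in place of 10, 1 replication gene passed 1.5-fold, and with 10 CPM none passed 2-fold. The remaining 11 of 54 genes on the list had too few UMIs. Summed over the 54 genes, S cells ranged from 1180 to 5330 CPM (median 3049) and the others from 182 to 5299 CPM (median 1863).

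Among origin licensing genes, Mcm2, another part of the helicase, was at 57.0 CPM in S cells and 29.0 CPM in the others. Mcm3 was at 56.8 and 32.5 CPM. Orc2, a part of the origin recognition complex, differed little, with 43.0 and 41.9 CPM. For the firing of origins, Cdc45, which joins the helicase when an origin fires, was at 36.2 and 16.5 CPM, while Dbf4, which activates the kinase Cdc7, was at 27.0 and 26.7 CPM.
Among the polymerase, clamp and ligase genes, Rfc3, part of the loader of Pcna, was at 55.3 and 25.1 CPM. The flap endonuclease Fen1 was at 44.7 and 21.6 CPM, and Rpa1, which binds single-stranded DNA, at 54.2 and 28.9 CPM. The DNA ligase Lig1 had a log2 ratio of 0.36 and stayed under the 1.5-fold limit.

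All 8 genes of dNTP supply had a ratio above 0, and 5 passed 1.5-fold, Tyms included, against 1.06% of all genes. Rrm2, the regulated subunit of ribonucleotide reductase, was at 420 CPM (399 to 442) in S cells and 217 CPM (211 to 222) in the others. In single S cells it ranged from 18.7 to 1444 CPM (median 392.1), and in the others the median was 137 CPM. Tk1, thymidine kinase, was at 87.9 and 46.1 CPM, and Dck, deoxycytidine kinase, at 26.4 and 12.4 CPM.

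Of 14 tested G1/S regulators, 2 were at least 1.5-fold higher, against 1.06% of all genes, and these were both cyclins E. Ccne1 was at 72.5 CPM (63.9 to 81.9) in S cells and 33.2 CPM (31.1 to 35.5) in the others. Ccne2 was at 59.0 CPM (51.3 to 67.5) and 24.96 CPM (23.1 to 26.9). The median over single S cells was 45.0 CPM for Ccne2, while the median of the others was 0. Their partner Cdk2 was at 17.4 and 10.5 CPM. E2f1 was at 28.9 and 18.3 CPM, and E2f3 was at 15.2 and 16.4 CPM. Cdk4, which acts earlier with cyclin D, was at 406 and 376 CPM.

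Of 11 genes of chromatin assembly and maintenance methylation, 4 were at least 1.5-fold higher, against 1.06% of all genes. Chaf1b, a part of the histone chaperone CAF-1, was at 36.8 and 15.1 CPM, the histone chaperone Nasp at 205 and 116 CPM, and the chromatin remodeller Hells at 83.4 and 44.3 CPM. Hat1, which acetylates new histones, was at 85.7 and 43.0 CPM. Dnmt1, the maintenance methyltransferase, was at 28.4 and 23.5 CPM. Other genes among the 15 with the largest ratios were Ung, which removes uracil from DNA, at 37.1 and 14.2 CPM, and Gmnn, the geminin that blocks renewed licensing, at 85.1 and 41.7 CPM. Nmral1 (30.9 and 12.4 CPM) and the nucleoporin Nup43 (50.3 and 24.2 CPM) were also among them, and Pcna-ps2, a pseudogene of Pcna that may share reads with it, was at 56.5 and 27.0 CPM. The largest ratio of all belonged to Atf7, a transcription factor, at 29.2 and 6.15 CPM, but 89.4% of its UMIs in S cells came from 1 cell, and without that cell the log2 ratio was -0.30.

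**Figure D3:**
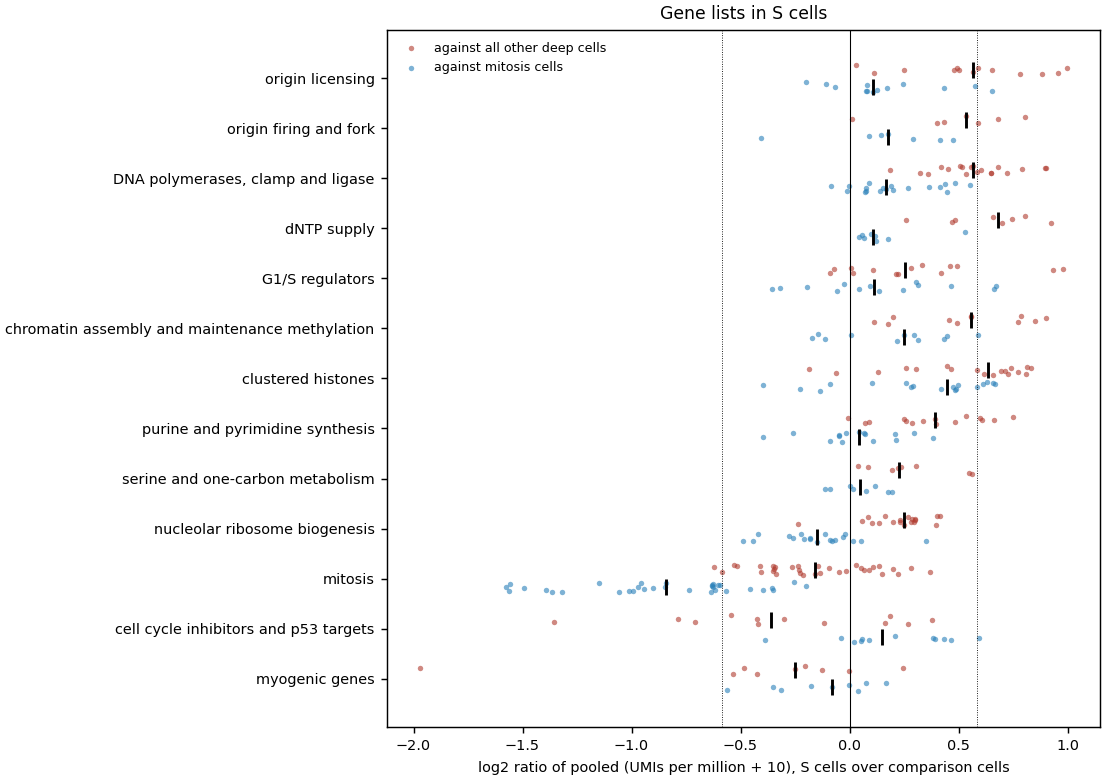
Log2 ratio of pooled CPM plus 10 for each tested gene of 13 lists, S cells over all other deep cells (red) and over mitosis cells (blue). Points are genes, black bars are medians and dotted lines mark 1.5-fold. Replication lists lie to the right of 0 in red and near 0 in blue, and mitosis genes lie near 0 in red (median -0.16) and to the left in blue (median -0.84).

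Clustered histone genes were used nowhere in the rule. Their mRNAs mostly lack a poly(A) tail, so a poly(A)-primed library holds only a part of them, and the members of the Hist1h2a family are nearly identical, so that reads may be divided between copies. Of 18 tested, 11 were at least 1.5-fold higher in S cells (background 1.06%) and none lower. The 11 comprised all 9 tested Hist1h2a genes, which may amount to little more than 1 signal, and 2 of the 9 tested genes of other families, Hist1h1e and Hist1h4d. Hist1h2bq (log2 ratio 0.26), Hist1h1b (0.31), Hist1h2bc (-0.06) and Hist1h1c (-0.19) did not pass. Hist1h2ap was at 449 CPM (427 to 471) in S cells and 252 CPM (246 to 258) in the others. Hist1h2ah was at 335 and 184 CPM and Hist1h2aj at 218 and 120 CPM.
Summed over the clustered histone genes, single S cells ranged from 91.6 to 8341 CPM with a median of 1539. The medians of the other classes were 553 in mitosis, 257 in differentiation, 429 in interferon, 461 in Nupr1-Neat1 stress and 600 CPM in heat shock cells. The upper quartile over all deep cells was 1632 CPM, and 33 of 72 S cells (45.8%, 34.0 to 58.0%) reached it, against 118 of the other 531 (22.2%, 18.8 to 26.0%). The share was 24.5% in mitosis, 24.2% in interferon, 25.3% in Nupr1-Neat1 stress, 24.1% in heat shock and 6.94% in differentiation cells. S cells made up 21.9% of the 151 cells with this much histone RNA. The cells come from 1 library, so these shares are descriptions.

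**Figure D4:**
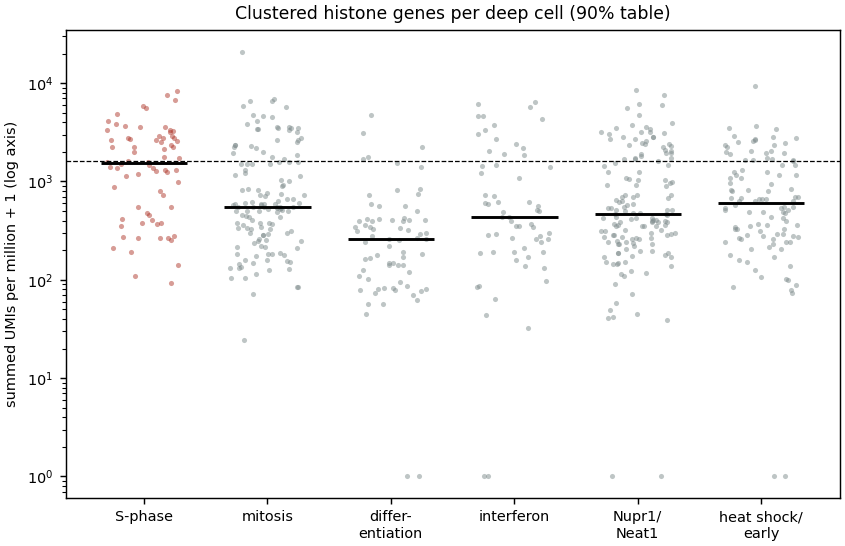
Summed CPM plus 1 of the clustered histone genes (log axis) in each deep cell by class, with S cells in red. Black bars are medians, and the dashed line marks the upper quartile of all deep cells. The bar of S cells, at 1539 CPM, stands just below that line and those of the other 5 classes between 257 and 600 CPM.

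Within the S cells, histone RNA varied widely. The 33 S cells above the quartile had 73.7 CPM of Ccne2 (61.3 to 87.9), and the 39 below it had 45.8 CPM (36.6 to 56.6). Ccne1 was alike, at 70.8 and 74.0 CPM. Cdk1 was at 111 CPM (95.8 to 128) in the first and 56.5 CPM (46.2 to 68.3) in the second. The mitosis genes outside the rule, in sum, were at 1151 CPM (1100 to 1203) and 1173 CPM (1124 to 1223). Cdkn1a, the cell cycle inhibitor p21, was at 414 and 227 CPM. In counts thinned to 20000 UMIs, the sums of replication and histone UMIs had a Spearman rho of 0.38 over the 72 S cells and 0.43 over the 531 others, all from 1 library. Replication and mitosis sums had a rho of 0.21 over S cells and 0.64 over the others, where the rule itself parted cells by both programs.

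The mitosis cells were the class most like the S cells in replication genes. Of the 43 replication genes, none differed by 1.5-fold in either direction between S and mitosis cells (median log2 ratio 0.12), where 0.505% of the 7720 genes were higher and 1.04% lower. Rrm2 was at 407 CPM in mitosis cells, near the 420 CPM of S cells. On the lists of the cell cycle, the genes at least 1.5-fold higher than in mitosis cells were Mcm6 of the rule (log2 ratio 0.65), Ccne1 (0.66), Ccne2 (0.67), Chaf1b (0.59), the antiproliferative gene Btg2 (0.59) and 4 of the 18 histone genes, with Hist1h2ap at 281 CPM in mitosis cells. Ung, on none of the lists, had a ratio of 0.81.
Mitosis genes set the 2 classes apart. Apart from the rule's 4 genes, 22 of 29 tested were at least 1.5-fold lower in S than in mitosis cells, and all 29 had a ratio below 0 (median -0.74). Cenpe, a kinetochore motor, was at 12.6 CPM in S cells and 56.7 CPM in mitosis cells. The kinase Aurka was at 12.4 and 52.9 CPM, and Ube2c, which acts in the destruction of cyclins, at 109 and 297 CPM. The mitosis cells were chosen by the mitosis set, so this direction follows in part from the rule.
Against all other deep cells together, only Cenpe of the 29 was at least 1.5-fold lower, where 1.99% of genes were, and none was higher (median -0.16). Top2a, which untangles DNA, was at 88.2 and 70.8 CPM, and Mki67, a marker of cycling cells, at 22.8 and 24.99 CPM.

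Metabolic lists had smaller median log2 ratios than the replication genes (0.55). Of 15 genes of purine and pyrimidine synthesis (median 0.39), 4 were at least 1.5-fold higher in S cells than in the others, against 1.06% of all genes. Paics was at 153 and 87.1 CPM and Umps at 35.7 and 18.9 CPM. None of 8 genes of serine and one-carbon metabolism passed the fold, but all 8 were above 0 (median 0.23). None of 19 nucleolar genes passed it either (median 0.25), and against mitosis cells their median was -0.15. At a share of 1.06%, lists of this length hold few or no such genes, so that none passed says little. Of 4 tested repair and checkpoint genes, Rad51ap1 passed, at 29.8 and 16.5 CPM.

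Of the tested rule genes, 2 of 4 for differentiation, both for interferon, all 4 for Nupr1-Neat1 stress and 3 of 4 for heat shock were at least 1.5-fold lower in S cells. The rule removes cells in which those sets are high, so these are descriptions. Neat1 was at 23.9 and 93.7 CPM and Hmox1, heme oxygenase, at 61.2 and 199 CPM. Outside the rule, the lowest ratios were those of Resf1 (25.005 and 78.1 CPM), the muscle actin Acta1 (1.97 and 19.2 CPM), the chemokine Cxcl1 (36.2 and 102 CPM), and the transcription factors Sox4 (32.0 and 90.2 CPM) and Klf4 (29.8 and 81.9 CPM). They were followed by Hspb1, Pmaip1, Klf6, Mylpf and Fbxo32, with log2 ratios from -1.16 to -1.10. Against mitosis cells the ratios of Acta1, Cxcl1, Klf4, Hspb1, Pmaip1, Klf6 and Mylpf were above 0, at most 0.67, while that of Resf1 was -0.51.
Of 12 inhibitors and p53 targets, 3 were at least 1.5-fold lower than in the other cells, where 1.99% of all genes were. Cdkn1c, a gene of the rule that the choice of cells itself lowers, was at 7.02 and 33.6 CPM, the p53 inhibitor Mdm2 at 65.7 and 114 CPM, and the stress gene Gadd45a at 39.6 and 75.7 CPM. Cdkn1a was at 316 CPM in S cells, 464 CPM in the others and 240 CPM in mitosis cells.

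The S cells carried the markers of myogenic cells. Myod1, the factor of committed myoblasts, had a UMI in 94.4% of S cells, at 248 CPM against 208 CPM in the others, and Des, muscle intermediate filament, had one in every S cell. Myog, of differentiating cells, was at 13.5 and 82.1 CPM, which the rule favours. Pax7 was at 3.65 CPM (1.94 to 6.25) and had a UMI in 15.3% of S cells. Of the 9 myogenic genes tested, none was higher by 1.5-fold, where 1.06% of all genes were, and only Myog was lower, where 1.99% were. Only Myod1 had a log2 ratio above 0 (0.24), and the median was -0.25. Pax7 was at -0.43, Cdh15 at -0.25, Des at -0.20 and Myf5 at -0.12. Against mitosis cells the ratio of Myod1 was -0.35. Quiescence genes summed to 67.4 CPM in S cells and 76.5 CPM in the others. In the 613 cells with quiescence genes, Myod1 was higher still, at 922 CPM. Of genes that go with the label S-phase and were not in the rule, only a part was at least 1.5-fold higher in S cells. These were 11 of 18 tested histone genes, but 2 of 9 outside the Hist1h2a family. Of 14 tested G1/S regulators, 2 passed, both of them cyclins E. The histone sum was below the upper quartile of deep cells in 39 of the 72 S cells. The word activated could not be checked against the injury, because the labels do not assign barcodes.
Markers of immune, endothelial, glial and red cells were low, while those of fibro-adipogenic, mural and myofibre cells were seen in more S cells. Immune genes summed to 1.69 CPM in S cells, with a UMI in 4 of 72, and Ptprc was at 0 by the rule. Endothelial genes summed to 5.06 CPM, with a UMI in 8, glial genes to 1.40 CPM and red cell genes to 1.69 CPM. Fibro-adipogenic genes summed to 45.2 CPM in S cells and 60.3 CPM in the others, with a UMI in 55 of 72 and 401 of 531. The defining Pdgfra was at 0 in every S cell. Mural genes summed to 34.0 and 49.8 CPM, with a UMI in 25 S cells and 217 others, and ranged over single S cells from 0 to 978 CPM. Myofibre genes summed to 14.3 and 43.8 CPM, with a UMI in 21 S cells and 204 others. The part of these cells' RNA in the results was not tested.

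The 10% table gave a further set of counts for some of the same barcodes. If reads were pooled between the libraries, which could not be checked, the 2 sets are not independent. By the same rule, with z-scores within that table, 11 of 78 deep cells were S cells (14.1%, 7.26 to 23.8%). With the means and SDs of the 90% table, 5 were (6.41%). Of the 76 cells deep in both tables, 66 fell in the same class. Of these cells, 5 were S in both, 1 in the 90% table only and 6 in the 10% table only, of which 4 were Nupr1-Neat1 stress cells and 2 mitosis cells by the 90% table. The S-phase means of the 76 cells had a Spearman rho of 0.92 between tables.

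**Figure D5:**
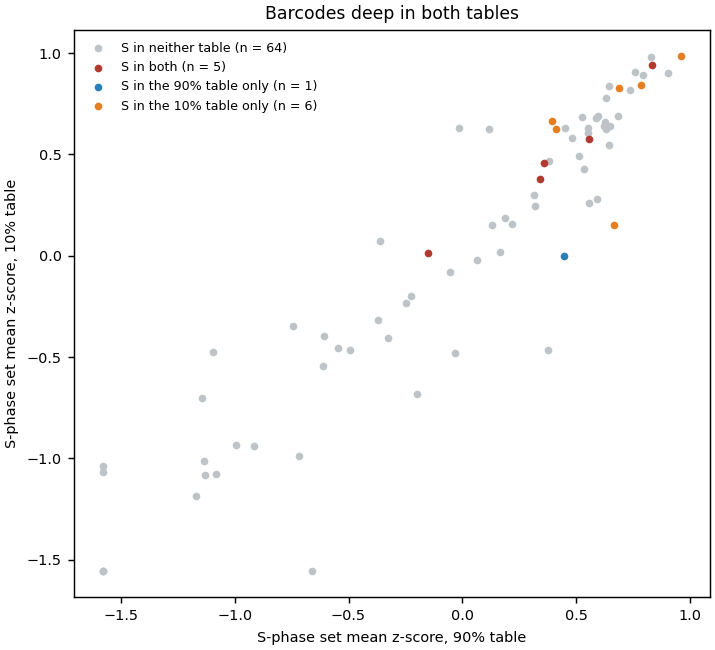
Mean z-score of the S-phase set in the 90% table (horizontal) and in the 10% table (vertical) for the 76 barcodes deep in both, coloured by the table in which the cell was called an S cell. The points form a band from low left to high right (Spearman rho 0.92), and cells called S lie along its middle and upper stretch among cells that were called S in neither table.

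In the 10% table, the 11 S cells had a median histone sum of 5832 CPM (149 to 21552) and the 67 others one of 598 CPM (0 to 10193). By the 90% table, 6 of these 11 were mitosis or Nupr1-Neat1 stress cells and not S cells. They included the mitosis cell with the largest histone sum in the 90% table, 20959 CPM. The contrast therefore does not describe the S cells of the 90% table alone. Of 10 histone genes with at least 200 UMIs there, 9 were at least 1.5-fold higher, where 1.28% of 2577 genes were, and 1 was lower, where 3.38% were. Nearly identical copies may divide reads here too, so the 9 may be fewer signals. Of 12 other replication genes, 4 were higher and none lower. Ccne1 was at 62.9 and 23.95 CPM and Gmnn at 89.7 and 36.3 CPM. Ccnb1, of the mitosis set, was at 18.6 and 52.2 CPM. Myod1 was at 132 CPM in these S cells and 197 CPM in the others, the opposite direction to the 90% table.

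Long reads of the same 78 cells came to 619471 UMIs in the 11 S cells and 3978210 in the 67 others. Only 5 of these 11 were S cells by the 90% table as well, so the long-read values do not describe the S cells of that table alone. The 4 genes of the rule chose these 11 cells in short reads of the same library, so their long-read levels are descriptions. Long-read Pcna was at 370 CPM (323 to 421) in S cells and 121 (111 to 133) in the others. Tyms was at 207 (172 to 246) and 94.3 (85.0 to 104), and Mcm6 at 107 (82.4 to 136) and 77.9 (69.5 to 87.1). Mcm5 was at 59.7 (42.1 to 82.3) and 58.1 (50.8 to 66.1).
Outside the rule, long-read Ccne1 was at 190 (158 to 228) and 66.4 (58.6 to 74.9), Ccne2 at 88.8 and 22.1 with UMIs in 6 of the 11 S cells, and Rrm2 at 475 (422 to 532) and 328 (310 to 346). Pold2, a subunit of polymerase delta, went the other way, at 95.2 (72.5 to 123) and 144 (132 to 156). Short reads of Pold2 were at 47.8 and 51.5 CPM in the same cells. In the S cells of the 90% table, by contrast, its log2 ratio was 0.51.

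Isoform shares were examined for 9 genes, the 4 of the rule with Rrm2, Dut, Dctpp1, Tipin and Pold2, and for the 2 isoforms of each with the most UMIs. The intervals in S cells and the others overlapped for each of these isoforms, and other isoforms were not compared. The isoform under the reference name ENSMUST00000020980.11 took 85.4% (80.8 to 89.2%) of Rrm2 long-read UMIs in S cells and 83.2% (81.1 to 85.2%) in the others. The leading isoform of Pcna, from chr2:132249162 to 132253183, took 49.8% (43.1 to 56.4%) and 45.5% (41.0 to 50.1%), and that of Tyms 63.3% and 66.1%. The leading Mcm5 isoform took 70.3% (53.02 to 84.1%) of 37 UMIs and 55.4% (48.8 to 61.9%) of 231. For Dctpp1, which breaks down unwanted dCTP, the leading isoform took 99.2% and 99.1%. Tipin, a fork protection gene, divided its UMIs over a pair of reference isoforms, at 41.7% and 42.9% in S cells and 39.5% and 37.5% in the others.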

How the data were processed

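The deposited values are raw UMI counts, made by the authors from short reads (by gene, both libraries) and from long reads (by isoform, 10% library). Short reads were processed with scPipe according to the study's methods, while the submitters' processing notes list Cell Ranger 1.3, and long reads were aligned with minimap2 2.17 and counted with FLAMES. The build is GRCm38.p6. The 90% and 10% tables hold 39044129 and 6772259 UMIs in 3001 and 1991 barcodes. Symbols were found for 26939 of 26997 and 20791 of 20830 gene IDs. The deposited isoform annotation was not used.

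CPM were computed per cell for scores and from summed counts per class for levels, with 10 CPM added for log2 ratios. Intervals are exact (Poisson for sums, Clopper-Pearson for shares) at 95% and cover counting error only. Computations used Python 3.11.15, numpy 2.4.6, scipy 1.17.1 and scanpy 1.11.5, and the functions were tested on simulated data. The design took the 10% library for other cells of the same capture, which the shared barcodes contradict. The cells and gene lists were chosen with earlier results of these data known. Named are the 24 rule genes, list members with 2 to 4 examples of the largest or smallest ratios, the 15 genes with the largest and 10 with the smallest ratios outside the rule (predicted genes and ribosomal pseudogenes left out), and for isoforms the rule's genes and the 5 replication genes with the most long-read UMIs. Other named genes were chosen after their values were seen. Alternatives were other UMI minimums, thinning, left-out genes, a required lead, doublet removal, other pseudocounts and folds. Chosen after seeing the data were the removal of shared barcodes, of the S cell with the most UMIs of a gene, and choosing cells on 1 random part of the UMIs while measuring on the other.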

Additional observations from a re-analysis of the deposited data

How the results depend on the processing

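No paired analysis was possible because the 2 libraries hold 1 sample each and no comparison between groups of samples was tested. The S cells numbered 72 (11.9%), with 82 genes higher and 154 lower, 19 replication genes higher and 1 mitosis gene lower. The number of cells moved beyond 1.5 times only when a lead of 0.25 was required (34 cells, 5.64%). Lacking Tyms in the score, 52 genes were higher and 101 lower. Against mitosis cells alone the 4 counts were 39, 80, 0 and 22. With a pseudocount of 1 CPM they were 256 higher, 561 lower and 6 mitosis genes lower, and with 50 CPM 10, 21, 1 and 0. A limit of 25% in place of 1.5-fold gave 565, 697, 37 and 9, and a fold of 2 gave 1, 26, 0 and 0. Without the S cell with the most UMIs of each gene, 52 were higher, 232 lower and 4 mitosis genes lower. The count of lower mitosis genes was 3 at a minimum of 10000 UMIs, with Tyms lacking or with the lead, 2 with scores on log2(CPM + 10), and 0 after thinning, with Mcm5, Mcm6 or Pcna lacking, with the mean of the cells' CPM, without shared barcodes, and in the random part of the UMIs not used to choose cells. The cause was not tested. In that random part, 77 cells were chosen, and 14 replication genes were higher. In the 10% table the share of S cells was 14.1%, and 6.41% with the means and SDs of the 90% table.

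Log2 ratios under the alternatives were followed for the tested rule genes and the genes with the largest and smallest ratios. Of these values, 582 stayed within counting error of the main ratio, 245 moved beyond it and 19 changed sign. The ratio of Myog, for example, went from -1.97 to -0.84 with Mcm6 lacking. The changes of sign follow. The log2 ratio of Atf7 became -0.38 with the lead of 0.25 and -0.30 without 1 S cell, and that of Fosb became 0.0013 in the unused part of the UMIs. Against mitosis cells the ratios of Cdkn1c (0.088), Ifi27l2a (0.14), Nupr1 (0.18), Neat1 (0.61), Hmox1 (0.71), Ndrg1 (0.37), Hspa1a (0.97), Fosb (0.37), Atf3 (0.63), Acta1 (0.14), Cxcl1 (0.23), Klf4 (0.67), Hspb1 (0.40), Pmaip1 (0.18), Klf6 (0.14) and Mylpf (0.17) were above 0. The single capture limits all values: counting intervals do not cover differences between mice.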
